A study of Mus musculus with 13 samples.

Results

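Neurons taken from the medium level of the mouse retrosplenial cortex were compared with neurons taken from its anterior level, with all cell classes together. A cell belonged to a level when the name of its column in the deposited count table held that level, which gave 217 medium cells and 256 anterior cells, 473 of the 765 cells of the study. The other 292 cells came from the posterior level and are given only as levels beside the comparison. Every cell came from wild-type B6 mice, and the labels name no treatment. Tissue was microdissected from acute slices, its dissociated cells were pooled over slices, and single cells went into wells of 11 libraries. The deposited cell table assigned each cell to 1 of 3 animals, so the comparison rested on 6 sums of counts, 1 for each animal and level. These held 45, 106 and 105 anterior cells and 35, 89 and 93 medium cells of animals 1, 2 and 3. The labels call the cells neurons, and Slc17a7, the vesicular glutamate transporter of most cortical excitatory neurons, had a count in 255 of 256 anterior and 213 of 217 medium cells.

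The retrosplenial cortex lies on the midline behind the cingulate cortex and is known for its part in spatial memory and navigation. It exchanges connections with the hippocampal formation and the anterior thalamus, and it extends over a long anterior to posterior axis along which its neighbours change. Its excitatory neurons fall into classes by layer and projection, among them intratelencephalic (IT) neurons, which connect cortical areas, extratelencephalic (ET) neurons of layer 5, which project below the cortex, corticothalamic neurons of layer 6 and neurons of layer 6b. A sum over all cells of a level can therefore differ between levels because the classes are present in other shares, or because the cells of a class express a gene at another level. In such sums, fewer cells of a type and less RNA per cell cannot be told apart, so the cells were also grouped into clusters and the comparison was repeated with equal numbers of cells of each cluster.

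Depth moved with the level. Median counts per cell were 72761, 191596 and 205195 in the anterior cells of animals 1, 2 and 3, and 38259, 133348 and 170931 in the medium cells. The medium cells had the lower median in 11 of 11 libraries. Each library held wells of all 3 levels, and 0 wells were used by more than 1 level in a library. Of the 290 well barcodes, 141 occurred in more than 1 library and 0 were repeated within a library. Levels are given below as CPM, the count of a gene scaled by the total of its sum, and log2 fold changes are medium against anterior from edgeR's quasi-likelihood test, blocked by animal. Calls needed a log2 fold change of 1 or more in either direction together with an adjusted p (Benjamini-Hochberg) below 0.05.

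A few anterior wells stood apart from the rest. In 5 of 256 anterior wells (1.95%, exact 95% binomial interval 0.637 to 4.5%) the myelin genes Mag and Mog each had 10 or more counts. None of the 217 medium wells did, which allows a share of up to 1.38% by the limit of 3 counts and up to 1.69% by the exact interval, and none of the 292 posterior wells did. These limits cover counting error only. Animal 1 had 2 of these wells, in libraries 1 and 2, animal 2 had 1, in library 13, and animal 3 had 2, both in library 17. The wells also held 8 to 35 counts of Slc17a7, and they were placed among neurons, 2 in cluster 1 and 1 each in clusters 2, 5 and 7. Their totals ran from 63482 to 254991 counts. They are called the wells with oligodendrocyte RNA below, and results that rest on them are given with and without them.

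Over all cells, 1 gene was called among 13207 tested (0.00757%). Ptgds, the lipocalin-type synthase of prostaglandin D2, which is made by oligodendrocytes and meningeal cells, was lower at the medium level. It measured 474, 153 and 121 CPM in the anterior sums of animals 1, 2 and 3, and 2, 4.81 and 1.84 CPM in the medium sums, so that every medium sum lay below every anterior sum. The posterior sums held 2.66, 1.92 and 0.883 CPM. Its log2 fold change was -5.88 (SE 0.42, adjusted p = 0.00888). The 5 wells held 7696 of the 7767 anterior counts of Ptgds, which is 99.1%. The call was lost without library 13 (log2 fold change -4.23, adjusted p = 0.974), library 17 (-4.22, 0.972) or animal 1 (-5.48, 0.209), and without the shallowest 10% of cells (-5.81, 0.0563). Among the other anterior cells the highest single value was 4 counts, and among the medium cells it was 38. Without these 5 wells the log2 fold change of Ptgds was 0.86 (adjusted p = 0.963), in the other direction, and 0 of 13164 genes (0%) were called. With edgeR, 390 genes then had an unadjusted p under 0.05, while DESeq2 called 2, Kcnip1 and Ptpn13, both higher at the medium level.

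**Figure D1:**
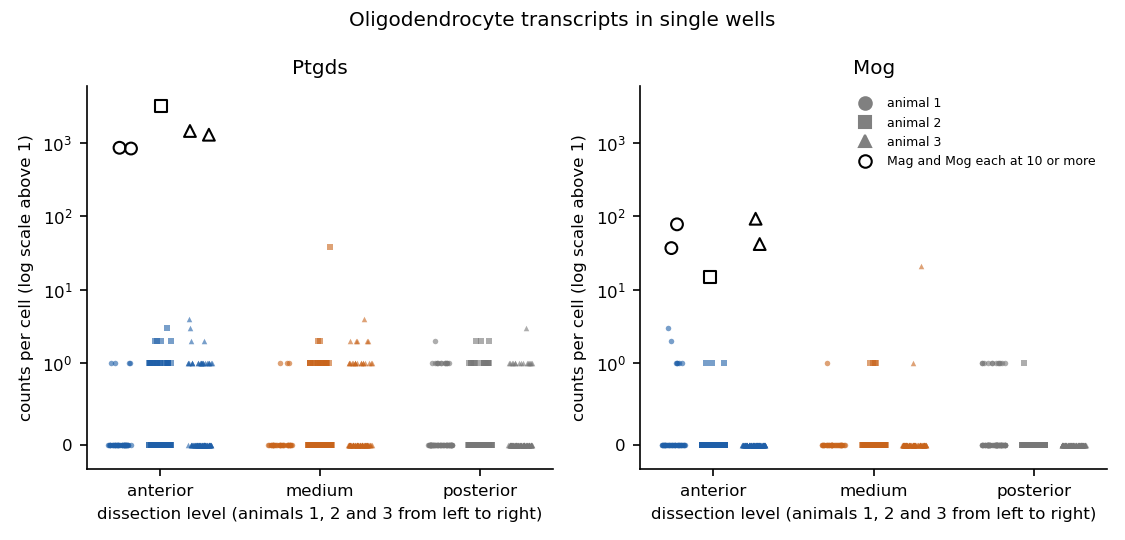
Counts of Ptgds (left) and Mog (right) in each of the 765 cells, by dissection level and, from left to right within a level, by animal; the axis is logarithmic above 1 count, and open black symbols are the wells in which Mag and Mog each had 10 or more counts. The 5 open symbols are all anterior and hold from 843 to 3228 counts of Ptgds, while no other cell exceeds 38; they hold from 15 to 93 counts of Mog, while no other cell exceeds 21.

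Other myelin and oligodendrocyte genes followed the same wells. Mal, a membrane protein of compact myelin, measured 52.9, 2.3 and 8.9 CPM in the anterior sums against 4.66, 0.481 and 0.118 CPM in the medium sums (log2 fold change -3.86, SE 0.74, adjusted p = 0.955), and the 5 wells held 97.1% of its anterior counts. Of the genes looked at after their values were seen, Ermn, Apod and Trf had 99.7%, 99.2% and 95.1% of their anterior counts in the wells, whereas Mbp, whose RNA was spread over 168 anterior and 128 medium cells, had 20.4%. Of the 11 genes listed for oligodendrocytes, 8 were tested. All 8 were lower at the medium level in 3 of 3 animals, as were 13% of all genes tested. An unadjusted p under 0.05 was found in 6 of the 8, against 3.16% of all genes tested. Their median log2 fold change was -2.34, against -0.04 over all genes tested. Without the wells 5 could be tested, 0 had an unadjusted p under 0.05 and the median was -0.10.

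Beyond Ptgds, few differences stood out from the spread between animals. At an unadjusted p under 0.05, 219 genes were higher (1.66% of those tested) and 199 lower (1.51%) at the medium level. All 3 medium sums lay above all 3 anterior sums in 622 genes (4.71%) and below them in 542 (4.1%). The next genes by unadjusted p are described by their values, since each of the other 22 genes named in this and the next paragraphs had an adjusted p of 0.955. Some of these values rested on few cells. The 5 cells with most counts held 54.6% of the anterior and 71.9% of the medium counts of Cyr61. These shares were 51.3 and 56.7% for Myl4, 55.7 and 47% for C1ql2, and 50.7 and 57.1% for Apoe. They were 48.8 and 43.8% for Mgat4c and 38.4 and 47.4% for Ddah1, but 8.83 and 9.73% for Tshz2.

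On the higher side 12 genes were named. C1ql2, a secreted C1q-like protein that binds at synapses, measured 37.7, 74 and 23.6 CPM in the anterior sums of animals 1, 2 and 3, and 91.9, 139 and 50.6 CPM in the medium sums. The medium value was higher within each animal, but the groups overlapped, and the posterior sums, at 413, 228 and 267 CPM, were above both. Its log2 fold change was 1.05 (SE 0.20, unadjusted p = 0.000715), and 1.73 without the wells with oligodendrocyte RNA. It was 0.71 without library 3, 1.86 without library 2, 1.80 without library 15 and 2.74 among cells of 50000 to 200000 counts, and DESeq2 called it (adjusted p = 0.0148). Ncam2, a neural cell adhesion molecule, measured 51.2, 185 and 115 CPM against 193, 263 and 189 CPM (log2 fold change 0.96, SE 0.26). Here the medium sums all lay above the anterior sums, and the medium value was higher in 10 of 11 libraries. The ephrin receptor Epha5 measured 99.7, 116 and 89.3 CPM against 259, 165 and 122 CPM (0.72, SE 0.21), and Nrp1, a co-receptor for class 3 semaphorins, 28.2, 32.6 and 23.7 CPM against 110, 51.3 and 37.8 CPM (1.02, SE 0.30). For both of these guidance receptors the groups did not overlap, and animal 1 had the highest medium value.

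Transcription factors and receptors came next. Tshz2, a teashirt zinc finger factor that marks retrosplenial neurons, measured 556, 417 and 479 CPM in the anterior sums and 816, 591 and 692 CPM in the medium sums. It was higher in 11 of 11 libraries, with a small log2 fold change of 0.48 (SE 0.14, unadjusted p = 0.00898), and its posterior sums held 737, 520 and 697 CPM. Its relative Tshz3 measured 32.4, 34 and 39.3 CPM against 75.3, 56.8 and 61.5 CPM (0.81, SE 0.23). Slc17a6, a second vesicular glutamate transporter that the cortex expresses mainly in retrosplenial superficial neurons, measured 18, 19.7 and 22.4 CPM against 36, 37.5 and 54.7 CPM (1.04, SE 0.26), a value that was 0.34 without library 1 and 0.33 among cells of 50000 to 200000 counts. Among the clusters described below, Slc17a6 was highest in cluster 10, at 296 CPM, and then in cluster 8, at 243 CPM. The serotonin receptor Htr2c measured 18.3, 32.9 and 15.7 CPM against 70, 43.4 and 38.7 CPM (1.14, SE 0.32). In these 4 genes the medium sums all lay above the anterior sums.

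The other 4 of the 12 genes on this side had varied roles. Mgat4c, which belongs to a family of N-glycan branching enzymes, measured 6.09, 12.4 and 10.9 CPM at the anterior level and 24, 28 and 25.8 CPM at the medium level (1.38, SE 0.34), with 7.09, 10.5 and 12.2 CPM at the posterior level. Its medium values thus stood above both of the other levels. The RNA-binding protein gene Rbm26 measured 29.9, 27 and 33.4 CPM against 71.3, 56.1 and 49.8 CPM (0.91, SE 0.24). C1qtnf4, a secreted C1q and TNF related protein, had a log2 fold change of 0.72 (SE 0.21) but was higher in only 6 of 11 libraries. Ddah1, which breaks down an inhibitor of nitric oxide synthase, measured 21.3, 21.9 and 13 CPM against 72.6, 43.7 and 19.4 CPM (1.05, SE 0.30), and its groups overlapped.

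On the lower side, 9 genes were named besides Ptgds and Mal. Rasgrf2, a calcium-dependent Ras exchange factor of upper-layer neurons, measured 99.4, 45.7 and 108 CPM in the anterior sums and 32, 31 and 52.2 CPM in the medium sums (log2 fold change -1.09, SE 0.26, unadjusted p = 0.00337). The Slit pathway receptor gene Robo3 measured 75.9, 27.2 and 73.1 CPM against 30, 17.3 and 38.5 CPM (-0.995, SE 0.25). Both were lower at the medium level in 9 of 11 libraries and in each animal, while anterior animal 2 lay within the range of the medium sums. Ptn, the heparin-binding growth factor pleiotrophin, was the most even of these genes, at 76.2, 84.7 and 80.6 CPM against 43.3, 42.2 and 45.9 CPM (-0.92, SE 0.20).

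Cyr61, a matrix protein gene of the immediate early type, measured 15, 53.8 and 10.1 CPM against 3.33, 11.9 and 4.15 CPM (-1.86, SE 0.38) and was lower in 10 of 11 libraries. Ramp3, an accessory protein of calcitonin-type receptors, measured 80.9, 56.2 and 81.1 CPM against 32, 43.2 and 32 CPM (-1.04, SE 0.28), and its posterior sums held 104, 120 and 49.2 CPM. Myl4, a myosin light chain gene, measured 49.9, 21.4 and 40.1 CPM against 15.3, 11.5 and 17.8 CPM (-1.27, SE 0.31). Apoe, the lipid carrier made chiefly by astrocytes, measured 78.9, 53.4 and 67.8 CPM against 14.7, 31.6 and 34.4 CPM (-1.32, SE 0.35). Without the wells with oligodendrocyte RNA the value for Apoe was -0.81. Afap1l1, which encodes an actin-associated protein, and Ttc27 had log2 fold changes of -1.43 (SE 0.37) and -1.18 (SE 0.33), and in both all medium sums lay below all anterior sums.

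**Figure D2:**
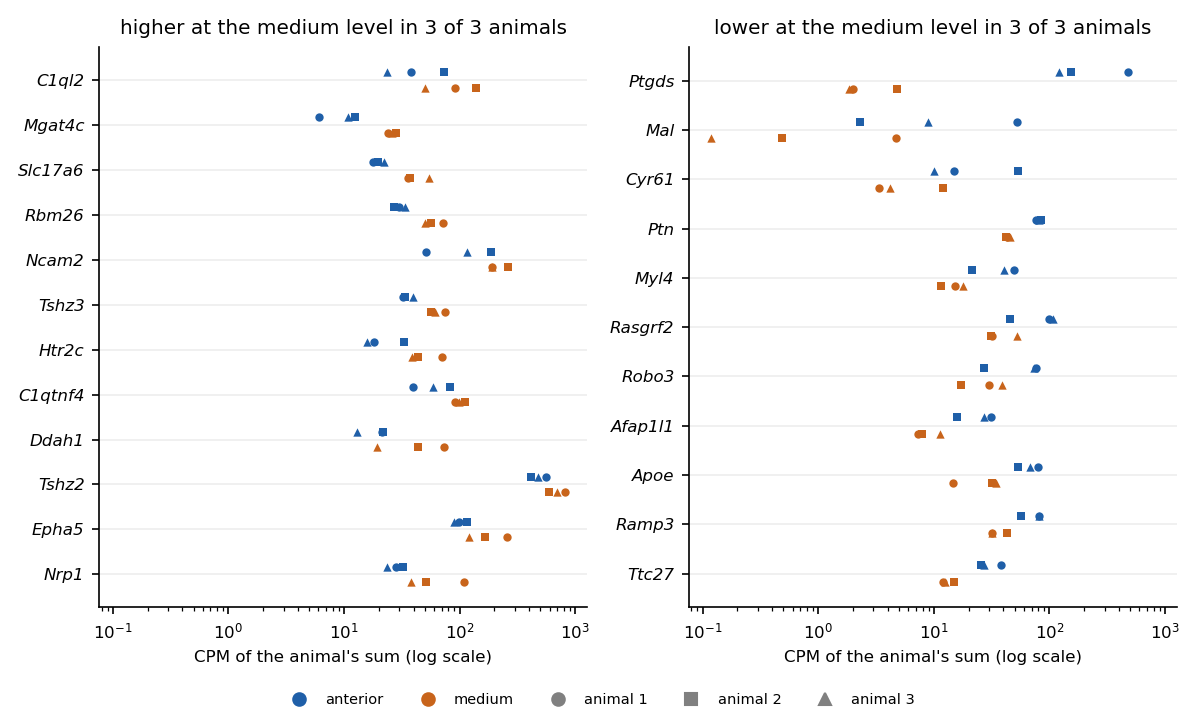
Level of the 23 named genes in the sums of each animal, as CPM on a logarithmic axis; blue is anterior, orange is medium, and circles, squares and triangles are animals 1, 2 and 3. Ptgds stands apart, from 121 to 474 CPM against 1.84 to 4.81 CPM, while the orange and blue points of most other genes lie close together.

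A selection of cells made the median depth over all animals alike between the levels. When only cells of 50000 to 200000 counts were kept, 146 anterior and 136 medium cells with median totals of 131041 and 130104 counts, 0 genes were called by edgeR and 298 had an unadjusted p under 0.05. Within each animal the medium cells stayed shallower. Their medians were 71158, 127180 and 139815 counts in animals 1, 2 and 3, against 80702, 142479 and 157921 in the anterior cells. Only 8 of these medium cells were from animal 1, and 3 of the 5 wells with oligodendrocyte RNA were left out, so depth and the choice of cells cannot be told apart here. Of the 23 named genes 22 could be tested in those cells, and 22 had the same sign, 14 of them at an unadjusted p under 0.05. Those cells are part of the cells on which the genes were chosen, so the signs are not independent of that choice. Relative to all cells, the log2 fold change went from 1.38 to 2.15 for Mgat4c and from -0.995 to -2.002 for Robo3, and toward 0 for Ptgds (-2.25), Apoe (-0.68) and Ddah1 (0.42).

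The shares of the cell classes are given by animal. The exact permutation test compared 3 shares with 3 without pairing the levels of an animal, although both levels came from the same 3 animals. Its smallest p is 0.1, so no difference in share could be called. Clustering gave 10 clusters over all 765 cells. Cluster 6 is called layer 6 corticothalamic-like because Rprm, Crym, Foxp2 and Syt6 all led in it. It made up 13.3, 10.4 and 9.52% of the anterior cells of animals 1, 2 and 3, and 25.7, 16.9 and 14% of the medium cells. Its share was thus higher at the medium level in each animal and in 8 of 11 libraries, without overlap of the groups (two-sided unpaired exact permutation p = 0.1, the smallest this test allows, 0.5 after adjustment over the clusters). Cluster 10, a group of 11 cells led by Kcnip1 and Pvalb, made up 0, 0 and 1.9% of the anterior cells and 2.86, 3.37 and 2.15% of the medium cells (exact permutation p = 0.1). Cluster 7, led by C1ql2 and Nrtn, was higher in each animal, at 4.44, 10.4 and 3.81% against 11.4, 11.2 and 4.3%, with overlap. Both cluster 4 and cluster 7 carried every layer 5 ET marker, but their leading genes included markers of other types and they are left unnamed.

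Cluster 3, led by Ptprm and Aldh1l1, went the other way. It made up 13.3, 15.1 and 14.3% of the anterior cells and 0, 6.74 and 14% of the medium cells (exact permutation p = 0.2). In animal 3 the shares were nearly equal, at 15 anterior and 13 medium cells. The direction also depended on the clustering, since the mean difference did not keep its sign at resolution 2. Cluster 1, the largest and led by Calb1 and Penk, made up 35.6, 20.8 and 48.6% against 17.1, 28.1 and 31.2%. Cluster 2, led by Thsd7a and Pygm, made up 15.6, 25.5 and 8.57% against 25.7, 14.6 and 20.4%. In these last clusters the direction differed between animals. Cluster 5, which carried the layer 6 IT markers and is called layer 6 IT-like, made up 13.3, 5.66 and 9.52% against 8.57, 14.6 and 2.15%. Cluster 9, layer 6b-like by its markers, held 6 anterior and 5 medium cells. The medium cells were shallower within the clusters as well, with a median of 80883 counts in cluster 6 against 125694 at the anterior level; the part of depth in the shares was not tested.

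**Figure D3:**
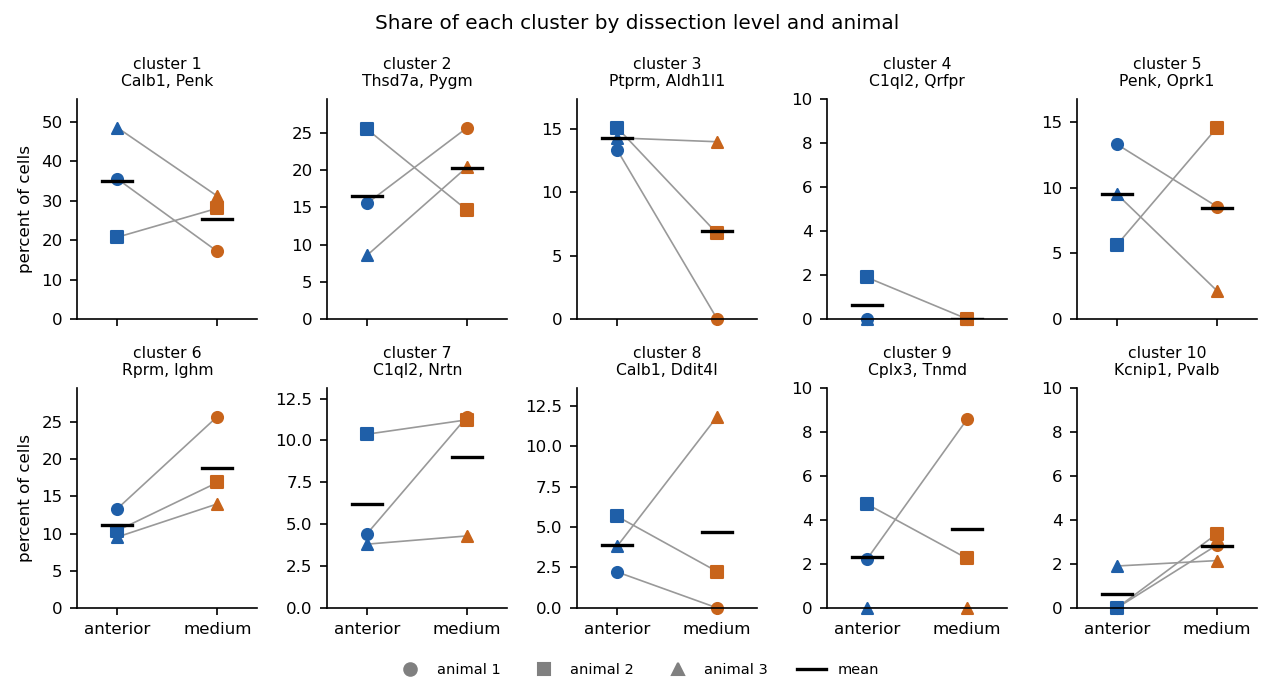
Share of cells in each of the 10 clusters, in percent of the cells of an animal at a level, with the 2 leading genes of each cluster; symbols are animals, grey lines join the levels of an animal and black bars are means. Clusters 6, 7 and 10 go up in all 3 animals and cluster 3 goes down in all 3, though only slightly in animal 3. The lines of clusters 1, 2, 5 and 8 cross.

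The comparison was repeated with an equal mix. With the same number of cells of every cluster at both levels of an animal, worth 25, 72 and 73 cells a level, 1 of 13002 genes (0.00769%) was called, again Ptgds, with a log2 fold change of -5.49. Of the 418 genes with an unadjusted p under 0.05 over all cells, 409 were tested with the equal mix. Each of these kept its sign and 259 kept an unadjusted p under 0.05, while the median absolute log2 fold change went from 0.97 to 0.85. These genes and the named genes were chosen on the same cells that the equal mix weights anew. Kept signs and a smaller median are therefore not independent of that choice. All 23 named genes kept their sign with the equal mix, 20 of them at an unadjusted p under 0.05. The exceptions were C1ql2 (log2 fold change 0.52), Nrp1 (0.50) and Ptn (-0.34). Without the wells with oligodendrocyte RNA the equal-mix value of C1ql2 was 1.05 (unadjusted p = 0.0053).

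The CPM difference of each gene was also split exactly into a part set by the shares of the clusters and a part set within clusters. Here a share is a cluster's part of the summed counts, not of the cells, so counts per cell also enter the mix part. Where a cluster was absent from 1 level of an animal, its CPM at the other level was used for both. The whole contribution of such a cluster then falls to the mix part by construction, as for cluster 3 in animal 1. A gene was taken to follow the mix where the mix part was at least 50% of the mean difference and had its sign in 3 of 3 animals. Of the 418 genes, 8 followed the mix (1.91%), 373 did not (89.2%) and 37 could not be assigned (8.85%). Of all 13207 genes tested, 1031 followed it (7.81%), 3420 did not (25.9%) and 8756 could not be assigned (66.3%). The 418 genes were chosen for differences that held across animals, and the rule asks for the same sign in every animal, so the shares are not independent of that choice. Without the wells with oligodendrocyte RNA 14 of the 418 followed the mix, and without animal 1, 2 or 3 it was 10, 42 or 22, with the sign then asked of the remaining animals. Clustering formed no cluster of oligodendrocytes, and the split counts a transcript in such a well as a difference within the cluster that holds the well. Ptgds did not follow the mix by the rule with or without the wells.

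The genes that followed the mix included Ptn and Nr4a2. Ptn was highest in the layer 6b-like cluster, at 306 CPM, followed by cluster 3. Cluster 1 held the largest part of its counts, 47.3% at the anterior and 54% at the medium level. Of its difference of -36.7 CPM, 55.8% lay in the mix, with mix parts of -33.3, -13.1 and -15 CPM in animals 1, 2 and 3. With every cell at the same weight, or without animal 1, 0 of the 11 named lower genes followed the mix, Ptn among them. Nr4a2, an orphan nuclear receptor of deep-layer neurons, was highest in the layer 6 corticothalamic-like cluster, at 129 CPM. It measured 25.5, 46.4 and 26.3 CPM in the anterior sums against 66.6, 63.2 and 37.8 CPM in the medium sums (log2 fold change 0.72, unadjusted p = 0.0254), and 59.5% of its CPM difference lay in the mix. Stxbp6, a syntaxin-binding protein, and Npnt, an integrin ligand, had 92.7% and 121% of their differences in the mix, with log2 fold changes of -1.27 and -0.65 over all cells and -0.26 and -0.13 with the equal mix. Klhdc8b had log2 fold changes of -0.997 and -0.37. For Osbpl6 the value was 0.41 over all cells and 0.39 with the equal mix, while 70% of its CPM difference lay in the mix. Adcy7 and Rapgef3, with at most 4.15 and 3.05 CPM in any anterior or medium sum, were not tested with the equal mix. In animal 1 their mix parts, -4.15 and 2 CPM, were their whole differences.

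Among the genes that followed the mix by this rule, those with the largest mix parts in CPM were abundant ones with small differences between levels. On the higher side, the mix part was 162 CPM for Cpe, a processing enzyme of peptide hormones, 57.9 CPM for Gap43, a growth cone protein, and 37.4 CPM for Scg3, a secretory granule protein. Their log2 fold changes over all cells were 0.12, 0.10 and 0.40, and 0.02, -0.10 and 0.11 with the equal mix. On the lower side it was -49.9 CPM for the spectrin gene Spna2, -45.2 CPM for the ephrin receptor Epha4, -37.9 CPM for the inositol trisphosphate kinase Itpka and -31.3 CPM for Ddit4l, a leading gene of clusters 1 and 8. None of these genes had an unadjusted p under 0.05. The other genes of this kind were Hsp90ab1, Gcc2 and Flywch1 on the higher side and Mtpn and Kcnk1 on the lower side. For Hsp90ab1 and Gcc2 the CPM difference was positive, at 7.76 and 1.66 CPM, while the log2 fold change was -0.04 for both.

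**Figure D4:**
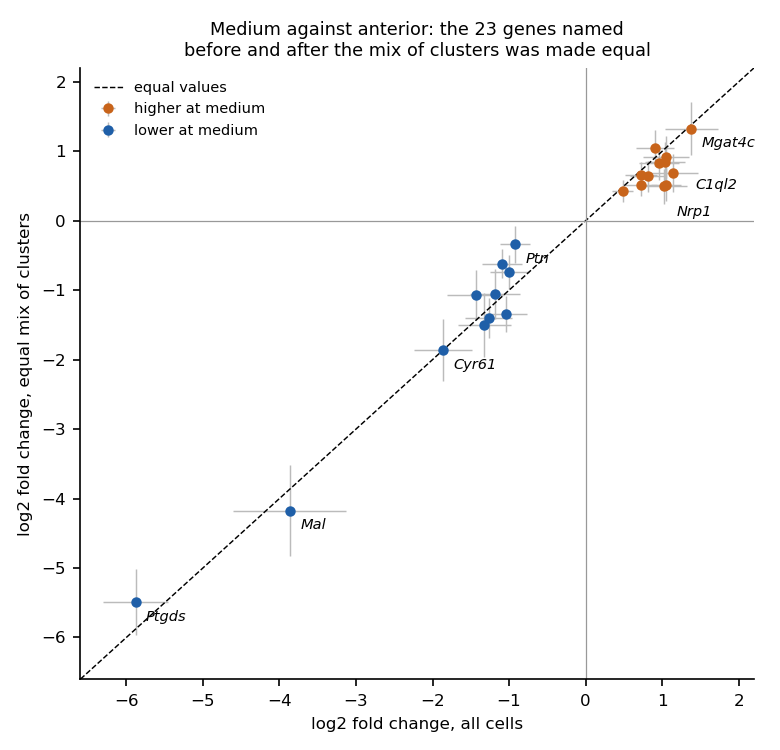
Log2 fold change of the 23 named genes over all cells (horizontal) against that with an equal mix of clusters (vertical), with bars of 1 SE; orange genes are higher and blue genes lower at the medium level, and the dashed line marks equal values. All 23 keep their sign, and C1ql2, Nrp1 and Ptn move toward 0, to 0.52, 0.50 and -0.34.

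Within single clusters, 3 had at least 5 cells in all 6 sums. No gene was called in cluster 1 (0 of 10553, 0%), cluster 2 (0 of 10237) or the layer 6 corticothalamic-like cluster 6 (0 of 8625) by edgeR, where 192, 253 and 196 genes had an unadjusted p under 0.05. DESeq2 called 4 genes in cluster 1 and none in the other clusters. Of the named genes, 17 of 18 tested in cluster 1 had the sign they had over all cells, 13 of 15 in cluster 2 and 12 of 15 in cluster 6. The cells of these clusters also entered the sums on which the genes were chosen, so the signs are not independent of that choice.

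Some named genes were not even across these clusters. Tshz2 measured 192, 174 and 133 CPM in anterior cells of cluster 6 and 991, 254 and 407 CPM in medium cells (log2 fold change 1.48, unadjusted p = 0.00179), without overlap. In cluster 1 it measured 779, 457 and 530 CPM against 628, 627 and 519 CPM, and in cluster 2 1260, 800 and 788 CPM against 1095, 845 and 739 CPM, with log2 fold changes of 0.00 and -0.09. Nr4a2 likewise measured 19.2, 102 and 84.6 CPM against 243, 184 and 192 CPM in cluster 6 (1.68, unadjusted p = 0.0101). Ramp3 was lower at the medium level in cluster 6, at 282, 311 and 186 CPM against 119, 139 and 64.2 CPM (-1.32), and Apoe in cluster 2, at 267, 182 and 262 CPM against 48.3, 130 and 98.4 CPM (-1.38). Rbm26 was higher in cluster 1, at 51.4, 10.5 and 31.4 CPM against 144, 78.2 and 68.3 CPM (1.76). None of these was called, and whether the clusters differ from each other was not tested.

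The opioid precursor gene Penk had a mix part opposite in sign to its difference. Over all cells it measured 93.9, 104 and 251 CPM at the anterior level and 204, 317 and 235 CPM at the medium level (log2 fold change 0.83, unadjusted p = 0.0272), with animal 3 in the other direction. Its mix part was -61.6 CPM while its difference was 103 CPM. In cluster 1 it measured 123, 409 and 301 CPM against 1052, 859 and 561 CPM (1.59, unadjusted p = 0.00104), and it was higher in each animal. Calb1, the calcium-binding protein calbindin, measured 1028, 1014 and 1095 CPM against 56, 662 and 967 CPM in the same cluster (-1.33, unadjusted p = 0.0387). Both genes lead cluster 1, so cells were placed there partly by them. Neither was called by edgeR over all cells or in cluster 1, while DESeq2 called Penk in cluster 1. The medium values of animal 1 in this cluster rest on 6 cells.

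Genes of the cortical classes were read against these shares. No member of the 26 gene lists was called over all cells by edgeR, with or without the wells or with the equal mix. Of all genes tested, 3.16% had an unadjusted p under 0.05, and 3.02% with the equal mix. In 3 of 3 animals 13.9% of them were higher and 13% lower. Of 9 retrosplenial superficial genes tested, 4 had an unadjusted p under 0.05, all higher at the medium level (Tshz2, Slc17a6, Cxcl14 and Nr4a2), 5 were higher and 0 lower in 3 of 3 animals, and the median log2 fold change was 0.48. Nr4a2, which was also in the layer 6b, area-patterning and immediate early lists, was highest in cluster 6. Cxcl14, a chemokine, measured 0, 8.09 and 5.38 CPM against 25.3, 11.3 and 28.1 CPM. With the equal mix the median was 0.32 and 2 genes, Tshz2 and Slc17a6, had an unadjusted p under 0.05. Of 8 layer 5 ET genes 3 had an unadjusted p under 0.05, all higher (C1ql2, Fezf2 and Parm1), with a median of 0.36. Fezf2, which specifies these neurons, measured 36.8, 77.6 and 35.2 CPM against 70, 77.9 and 71.8 CPM. With the equal mix 0 of the 8 did and the median was -0.07.

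Of 6 layer 5 IT genes 2 had an unadjusted p under 0.05, both lower, with a median of -0.55 that was -0.12 with the equal mix. Deptor, an inhibitor of the mTOR kinase, measured 54.3, 40.8 and 27.7 CPM against 19.3, 18.7 and 23 CPM, and 79.9% of its difference lay in the mix, but not with the same sign in every animal. Of 8 layer 2/3 IT genes 1 was lower (Rasgrf2) and 1 higher (Cdh13) at an unadjusted p under 0.05, with a median of -0.28 that was -0.03 with the equal mix. The 8 layer 6 corticothalamic genes held 0 at an unadjusted p under 0.05 and had a median of 0.19, and -0.33 with the equal mix. The same count was 1 of 6 for layer 6 IT genes (Penk), 1 of 4 for layer 6b genes (Nr4a2) and 2 of 16 for area-patterning transcription factors (Tshz2 and Nr4a2). Over all genes tested the median log2 fold change was -0.04, and -0.02 with the equal mix.

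**Figure D5:**
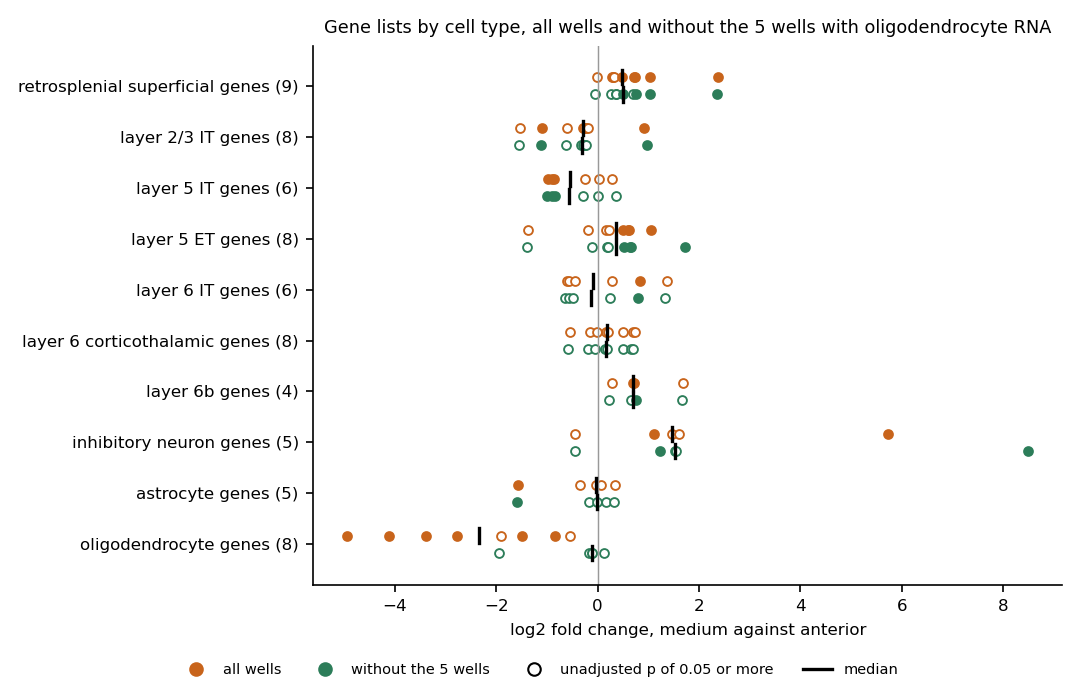
Log2 fold change, medium against anterior, of the members of 10 gene lists, with the number tested in brackets; orange is all wells, green is without the 5 wells with oligodendrocyte RNA, filled points have an unadjusted p under 0.05 and black bars are medians. The oligodendrocyte genes go from a median of -2.34 to -0.10 without the wells, while the retrosplenial superficial genes stay near 0.48.

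Of 5 inhibitory genes tested, Kcnip1 and Pvalb had an unadjusted p under 0.05 and were higher, and 3 did not. Kcnip1, a subunit that modulates A-type potassium channels, had 7, 0 and 1 counts in the anterior sums and 14, 248 and 103 counts in the medium sums, or 9.33, 19.9 and 6.1 CPM. It was found in 18 medium and 2 anterior cells, and 58.4% of its medium counts lay in cluster 10. Its adjusted p was 0.955 with all wells and 0.606 without the wells with oligodendrocyte RNA. DESeq2 called it in both cases, as did edgeR without the block once the wells were left out, and it is described for this reason. The calcium-binding protein gene Pvalb measured 29.9, 119 and 24.1 CPM against 150, 124 and 57.1 CPM, with posterior values of 14, 0.0871 and 27.7 CPM. The largest part of its medium counts, 44.6%, lay in cluster 2. The summed level of the 4 inhibitory markers in the table ran from 25 to 119 CPM at the anterior level and from 58.6 to 169 CPM at the medium level, and no well held 3 of them at 10 or more counts. The list's 7 genes in the table summed to 3442, 2031 and 2994 CPM against 1987, 2389 and 2178 CPM, nearly all of it Cck, a peptide gene that excitatory neurons also express, at 3394, 1911 and 2968 CPM against 1803, 2213 and 2113 CPM. Astrocyte markers summed to 28 to 39.9 CPM at the anterior level and 10.7 to 20.9 CPM at the medium level, and 1 anterior well held 3 of them at 10 or more counts. These markers include Aldh1l1, which was also a leading gene of cluster 3, so their sum cannot be read as astrocyte RNA alone. The longer astrocyte list of 9 genes summed to 465, 467 and 413 CPM against 774, 446 and 484 CPM, with a median log2 fold change of -0.02 over the 5 tested. Markers of the thalamus summed to at most 0.658 CPM at the anterior level and 1.92 to 4.66 CPM at the medium level, and those of the hippocampus to at most 9.17 and 8.42 CPM. Their part in the results was not tested. A row in the table was present for 4 of 6 inhibitory, 5 of 5 astrocyte, 2 of 4 thalamic and 2 of 4 hippocampal markers. None of the markers with a row was at 0 counts, while 0 of 4 microglial and 0 of 4 endothelial markers had a row.

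Channel, receptor and guidance genes were counted at an unadjusted p under 0.05, which 3.16% of all genes tested had. Over all genes 13.9% were higher and 13% lower in 3 of 3 animals. Of 53 potassium channel genes, 2 were higher (Kcnd2 and Kcnip1) and 1 lower (Kcnk4), which is 5.66%, and 13 were higher and 3 lower in 3 of 3 animals. Kcnk4, a mechanosensitive leak channel, measured 19.7, 19.2 and 33.8 CPM against 8.66, 11.5 and 13.3 CPM and was lower in 10 of 11 libraries. Of 35 glutamate and GABA receptor genes, 3 were higher and 0 lower, the kainate receptor subunits Grik2, Grik3 and Grik5. Grik2 measured 17.2, 14.3 and 15 CPM against 55.3, 19.2 and 23 CPM, Grik3 13.3, 16.4 and 8.6 CPM against 62, 19.7 and 17.6 CPM, and Grik5 26.3, 28.7 and 32.5 CPM against 56.6, 57.2 and 39 CPM. Each of these subunits was higher in 10 of 11 libraries, and in each the medium sums lay above the anterior sums. With the equal mix the unadjusted p was 0.0888 for Grik2, 0.0549 for Grik3 and 0.0213 for Grik5, while Grik1, another kainate subunit, had a log2 fold change of -1.13 (unadjusted p = 0.0389) and -0.65 over all cells.

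Of 29 neuropeptide and neuropeptide receptor genes, 2 were higher (Penk and Nts) and 2 lower (Oprl1 and Sstr3) at an unadjusted p under 0.05. Neurotensin, the product of Nts, is a peptide that cluster 6 also carried among its leading genes, and Nts measured 2.22, 2.73 and 6.25 CPM against 7.33, 12.3 and 18.3 CPM, with 49.8% of its medium counts in that cluster. Of 22 monoamine and acetylcholine receptor genes 1 was higher (Htr2c). Of 56 axon guidance genes 3 were higher (Epha5, Sema5a and Nrp1) and 2 lower (Sema4a and Robo3). Of 28 cadherin and protocadherin genes 1 was higher (Cdh13) and 1 lower (Pcdh8), and of 32 synaptic organizer genes 1 was higher (C1ql2) and 1 lower (Cbln4). Cdh13 measured 31.6, 50.9 and 18.5 CPM against 101, 89.6 and 25.2 CPM, and its posterior sums, at 137, 136 and 93.3 CPM, were higher in each animal. The 11 retinoic acid and thyroid hormone genes held 0 in either direction.

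Lists of cell state held few differences. Over all genes tested, 3.16% had an unadjusted p under 0.05, and 13% were lower and 13.9% higher in 3 of 3 animals. Of 22 immediate early genes, Fos was lower and Nr4a2 higher at an unadjusted p under 0.05. Fos measured 89.5, 205 and 136 CPM against 44, 165 and 120 CPM (log2 fold change -0.51, unadjusted p = 0.0487, and 0.0516 without the wells with oligodendrocyte RNA). In 3 of 3 animals 5 of the 22 were lower (22.7%) and 1 higher (4.55%). None of 13 heat shock and dissociation genes had an unadjusted p under 0.05. Among 69 nuclear genes of the respiratory chain 0 did, with a median of -0.14. In 3 of 3 animals 14 of the 69 were lower (20.3%) and 1 higher (1.45%). The 7 mitochondrially encoded genes also held 0 at an unadjusted p under 0.05, with a median of -0.18, and 3 of the 7 were lower in 3 of 3 animals (42.9%).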

How the data were processed

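Single neurons of 11 libraries were analysed from a deposited table of whole-number counts per gene and cell, in which 15114 genes and 765 cells had values and 0 cell columns were identical. That the counts are not normalized was read from the values. Per the submitters' processing notes the build was NCBIM37 and Seurat was used; the aligner, the cell filters and whether a count is a read or a molecule are not given in the sources used here, so intervals cover counting error only. Counting is not stated to use strand, and genes with near-identical or overlapping neighbours are uncertain. The brain sections were not used here.

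Counts of medium or anterior cells were summed per animal and level and fitted in R 4.3.3 by edgeR 4.0.16, with filterByExpr, TMM scaling and the functions glmQLFit and glmQLFTest. The animal was a block, because both levels came from the same animals; deviations from the level means correlated by 0.166, 0.0831 and 0.166 within animals 1, 2 and 3. Standard errors were taken as the absolute log2 fold change over the root of the F statistic. CPM use the total of each sum, which ran from 1500960 to 23035650 counts. Whether the slices of an animal were processed apart is not given in the sources used here, and p-values measure the spread between these 3 animals.

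Cells of all levels were clustered under Python 3.11.15 using scanpy 1.11.5 (counts scaled to 10000, log, 2000 variable genes, 30 components, 15 neighbours, Leiden resolution 1, seed 1). No doublet caller was run and each well was counted as 1 cell, although the wells with oligodendrocyte RNA also held Slc17a7. A marker led in a cluster if 25% or more of the cells held it and its log2 level exceeded the average over the remaining clusters by 1 or more. A cluster was named where every marker of a type, and at least 3, led and no marker of another type was among the 10 leading genes. In the equal mix, counts of the level with more cells of a cluster were scaled down to the cell number of the other level and rounded. The tests were tried on simulated counts.

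Named genes were up to 12 a direction: those called with the same sign in 3 of 3 animals, then those of smallest unadjusted p with the same sign and a mean of at least 20 CPM at the higher level, leaving out predicted, ribosomal and mitochondrial genes, plus up to 6 a direction with the largest mix part among genes that follow the mix. A gene that this rule gave on the lower side is not reported here. The comparison, the rules and the gene lists were chosen with earlier results of these data known. The alternatives were DESeq2 1.42.0, RLE scaling, no filter, no block, no minimum fold, equal cell weights, sets of cells, other clusterings and leaving out each animal or library. The alternatives without the wells with oligodendrocyte RNA and with cells of 50000 to 200000 counts only were chosen after seeing the data.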

Additional observations from a re-analysis of the deposited data

Results flagged for a closer look

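In 3 of the genes named, every animal was higher at the medium level in the cells of a cluster and every animal was lower in those of another. For Nrp1 the log2 fold change was 1.66 in cluster 1 and 2.46 in cluster 2, against -0.49 in the layer 6 corticothalamic-like cluster 6. Its CPM differences in animals 1, 2 and 3 were 48, 0.224 and 2.25 in cluster 1 and -5.32, -60.1 and -82.5 in cluster 6. For Flywch1 it was 0.094 in cluster 2 and -0.33 in cluster 1. For Kcnk1 it was 0.25 in cluster 2 and -0.46 in cluster 6. The difference between the clusters was not tested in any of these genes.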

How the results depend on the processing

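Over all cells, where 1 gene was called, DESeq2 called 13, and 0 were called without the shallowest 10% of cells, without the wells with oligodendrocyte RNA or among cells of 50000 to 200000 counts. Leaving out an animal gave 0 (animal 1) to 36 (animal 2), with 2 without animal 3, and leaving out a library 0 (libraries 13 and 17) to 2 (library 11). With 1 animal left out, 2 pairs of sums remain, with 1 residual degree of freedom. With the equal mix DESeq2 called 15, leaving out an animal gave 1 to 16 (16 without animal 2, 6 without animal 3), and 0 were called without the wells. Leaving out an animal gave 0 to 2 calls in cluster 1, where DESeq2 called 4, and 0 to 1 in clusters 2 and 6. Without the animal as a block 1 gene was called over all cells, 1 with the equal mix and 0 in each of the 3 clusters. The count of 8 genes that followed the mix was 25 at resolution 2, 14 without the wells and 10 to 42 without an animal (42 without animal 2). It was 12 with every cell at the same weight. The share difference of cluster 3, -7.33 points, was 0.22 at resolution 2 and -0.855 with clusters made without genes at an unadjusted p under 0.05 between levels (edgeR).

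Of 803 log2 fold changes of 35 genes, 774 kept sign and side of the threshold, 6 passed it, 5 (all of Ptgds) no longer did and 18, in 7 genes, had the other sign. Without the wells Ptgds was at 0.86. The others were near 0: leaving out animals or libraries gave -0.028 to 0.18 for Cpe, -0.027 to 0.21 for Gap43, -0.12 to 0.026 for Gcc2, -0.073 to 0.14 for Flywch1 and -0.45 to 0.026 for Kcnk1. With every cell at the same weight Gap43 was at -0.058 and Flywch1 at -0.0047, and among cells of 50000 to 200000 counts Hsp90ab1 was at 0.0063. The cause of these shifts was not tested.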
